A study of Mus musculus with 12 samples.

Results

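10 genes of the insulin-like growth factor (IGF) system were followed across a dose series of BRG1 loss in mouse embryonic stem (mES) cells. They were taken by symbol from the counts table, which lists 24421 genes, and all 10 were found. The list holds 4 genes of secreted IGF binding proteins (Igfbp2, Igfbp3, Igfbp4 and Igfbp5), the IGF1 receptor gene Igf1r, the adaptor genes Irs1 and Irs2, and 3 genes of IGF2 mRNA-binding proteins (Igf2bp1, Igf2bp2 and Igf2bp3). It was drawn up with the lower level of Igfbp2 already known, so the list was chosen by the measured fall of Igfbp2 over the doses, Igfbp2 is described without a test, and counts of called genes cover the other 9. Total RNA was sequenced from B6 mES cells, which the study derived from C57BL/6J blastocysts and kept in 2i+LIF, in which the Brg1 locus carries a knocked-in degron (dTag) that marks the BRG1 protein, the main ATPase of the mSWI/SNF chromatin remodeler, for degradation when dTAG13 is added. Every library, controls included, came from these knock-in cells. The cells were treated for 24 h with dTAG13 at 0.3, 1, 3, 10 or 100 nM, or were controls (0 nM), and each of the 6 conditions had 2 libraries. The study picked its knock-in line from colonies grown from single cells, and how many such clones were sequenced is not given in the sources used here. It describes its expression data as coming from independent experiments, but no label ties a library to a culture. P-values measure the spread between the 2 libraries of a condition, taken over all 6 conditions and partly shared among genes. For slopes over the doses they also take in how far the dose means depart from a line. Label numbers place the 0.3 and 3 nM libraries in another run than those of 0, 1, 10 and 100 nM. What a run marks is not given in the sources used here, so that for 0.3 and 3 nM against 0 nM the dose and the run cannot be told apart. The same holds for each step between neighbouring doses other than that from 10 to 100 nM.

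IGF1 and IGF2 are secreted growth factors that signal through the receptor tyrosine kinase IGF1R, which phosphorylates the IRS adaptors and thereby engages PI3K and AKT. The IGF binding proteins hold IGFs outside the cell and can limit or prolong their access to the receptor. The IGF2BPs share a name with this system because one of their first known targets was the Igf2 mRNA. They are RNA-binding proteins of embryonic cells that stabilize and localize many mRNAs.

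Total counts per library ran from 4663484 to 6375582. Exact intervals of count ratios cover counting error only, and reads carry no molecular identifiers. The intervals of log2 fold changes come from the fit and also take in the spread between libraries. Smarca4, the gene of BRG1, had 63.5 to 71.3 RPKM (reads per kb of exon, adjusted for the size of the library) in the 12 libraries, and because dTAG13 acts on the protein this transcript does not check the dose labels. All 9 mES cell markers examined, Pou5f1 and Nanog among them, had a mean of at least 1 RPKM, and their summed level was 2171 to 2202 RPKM at 0 nM and 2073 to 2114 RPKM at 100 nM. None of 8 fibroblast and 7 primitive endoderm markers reached a mean of 1 RPKM, and the primitive endoderm sum was 1.84 to 2.29 RPKM at 0 nM and 2.53 to 2.88 RPKM at 100 nM. The summed level of 5 neuroectoderm markers was 35.7 and 39.9 RPKM at 0 nM and 68.3 and 70.4 RPKM at 100 nM, with Neurog2 at 0 or 1 count throughout and Tubb3 alone at 30.6 to 60.2 RPKM over the 12 libraries. Sums of 7 trophectoderm and 5 mesoderm markers ran from 12.2 to 13.9 and from 13.8 to 17.7 RPKM at 0 nM, and from 17.9 to 20.1 and from 20.2 to 21.2 RPKM at 100 nM. Both lists hold Eomes, at 8.45 to 14.2 RPKM over the 12 libraries, so that these sums are not separate observations. The primitive endoderm, neuroectoderm, trophectoderm and mesoderm sums were higher at 100 nM than at 0 nM, as Igf2bp1 and Igf2bp2 were, and the mES cell sum was lower, as Igfbp2 and Irs2 were. Their part in those results was not tested.

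The 10 genes lie on 6 chromosomes, and Igfbp2 and Igfbp5 are neighbours on chromosome 1. Igfbp2 spans 72824480 to 72852471 on the plus strand (mm10), and Igfbp5 spans 72858065 to 72874865 on the minus strand, so that their 3′ ends face each other 5594 bases apart. No other gene of the counts table lay within 100 kb of Igfbp2. Of the other members, Igfbp3 spans 7206091 to 7213923 of chromosome 11 (minus strand), and Igfbp4 spans 99041260 to 99052643 of chromosome 11 (plus strand). Igf1r spans 67952257 to 68233667 of chromosome 7 (plus strand), Irs1 spans 82233105 to 82291439 of chromosome 1 (minus strand) and Irs2 spans 10986964 to 11008430 of chromosome 8 (minus strand). Igf2bp1 spans 95957164 to 96005944 of chromosome 11 (minus strand), Igf2bp2 spans 22059009 to 22163299 of chromosome 16 (minus strand) and Igf2bp3 spans 49085218 to 49214954 of chromosome 6 (minus strand). Promoter sequences are shown for Igfbp2, Irs2 and Igf2bp2, the members with the largest differences among those with a mean of at least 1 RPKM, so that their base composition can be set beside their levels. RefSeq promoters (GRCm38.p6) were matched for 9 of the 10 genes by symbol. The 250 bases before the start site are printed 5′ to 3′ on the gene's strand, from chr1:72824230-72824479 (plus strand), chr8:11008930-11009179 (minus strand) and chr16:22163300-22163549 (minus strand). Capitals mark matches on either strand to the TATA box (TATAAA), the core bound by NF-Y (CCAAT), the core bound by SP1 (GGGCGG), the octamer (ATGCAAAT), the E-box (CACGTG) or the STAT motif (TTCNNNGAA).
Igfbp2: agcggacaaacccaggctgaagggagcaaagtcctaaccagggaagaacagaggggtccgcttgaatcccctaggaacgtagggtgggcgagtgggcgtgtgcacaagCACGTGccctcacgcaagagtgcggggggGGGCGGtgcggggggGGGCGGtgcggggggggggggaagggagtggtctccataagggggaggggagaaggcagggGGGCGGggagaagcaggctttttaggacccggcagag
Irs2: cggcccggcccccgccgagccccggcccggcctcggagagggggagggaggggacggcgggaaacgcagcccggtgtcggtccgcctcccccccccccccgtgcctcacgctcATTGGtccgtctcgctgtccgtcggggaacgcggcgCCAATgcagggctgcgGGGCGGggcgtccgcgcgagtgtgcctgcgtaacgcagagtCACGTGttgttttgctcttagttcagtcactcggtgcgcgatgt
Igf2bp2: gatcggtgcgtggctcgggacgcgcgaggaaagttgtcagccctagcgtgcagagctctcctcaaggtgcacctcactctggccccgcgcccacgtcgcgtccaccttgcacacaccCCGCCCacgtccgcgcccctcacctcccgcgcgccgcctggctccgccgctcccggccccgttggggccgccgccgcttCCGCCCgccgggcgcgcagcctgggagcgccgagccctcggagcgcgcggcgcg

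The Igfbp2 window ends at the gene start used for counting and holds 3 SP1 cores and 1 E-box. It has 67.2% G or C and 14 CpG dinucleotides, against medians of 52.4% and 6 over all 32851 windows of the same length. A second RefSeq start of Igfbp2, 907 bases downstream, has 11 CpG and none of the 6 motifs in its window. The Irs2 window, whose start lies 499 bases upstream of the end used for counting, holds 34 CpG, 2 NF-Y cores, 1 SP1 core and 1 E-box. The Igf2bp2 window holds 40 CpG and 2 SP1 cores. No match overlapped another motif in these windows. Over all promoters, 32.7% hold an SP1 core, 33.8% an NF-Y core, 12.4% a TATA box, 7.02% a STAT motif, 6.02% an E-box and 1.6% an octamer. A match is a description of these letters and not of a bound site.

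Levels in cells without dTAG13 differed widely among the members. On the RPKM scale, which is per kb of exon, Igf2bp1 was highest at 116.8 ± 3.49 (SD, n = 2), followed by Igfbp2 at 96.7 ± 1.54, Igf2bp3 at 37.2 ± 3.10 and Igf2bp2 at 15.8 ± 1.45. Irs2, Igf1r, Igfbp3 and Igfbp4 stood at 5.05 ± 0.546, 4.11 ± 0.0281, 2.90 ± 0.519 and 1.65 ± 0.681 RPKM, each with n = 2. Igfbp5 and Irs1 were close to undetected at 0.142 ± 0.0350 and 0.118 ± 0.0342 RPKM, which rest on 10 and 13 counts over both libraries. In this order the libraries of neighbouring genes overlapped only for Igfbp5 and Irs1. Igfbp2 made up 94.5% and 96.3% of the summed RPKM of the 4 binding protein genes at 0 nM.

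**Figure D1:**
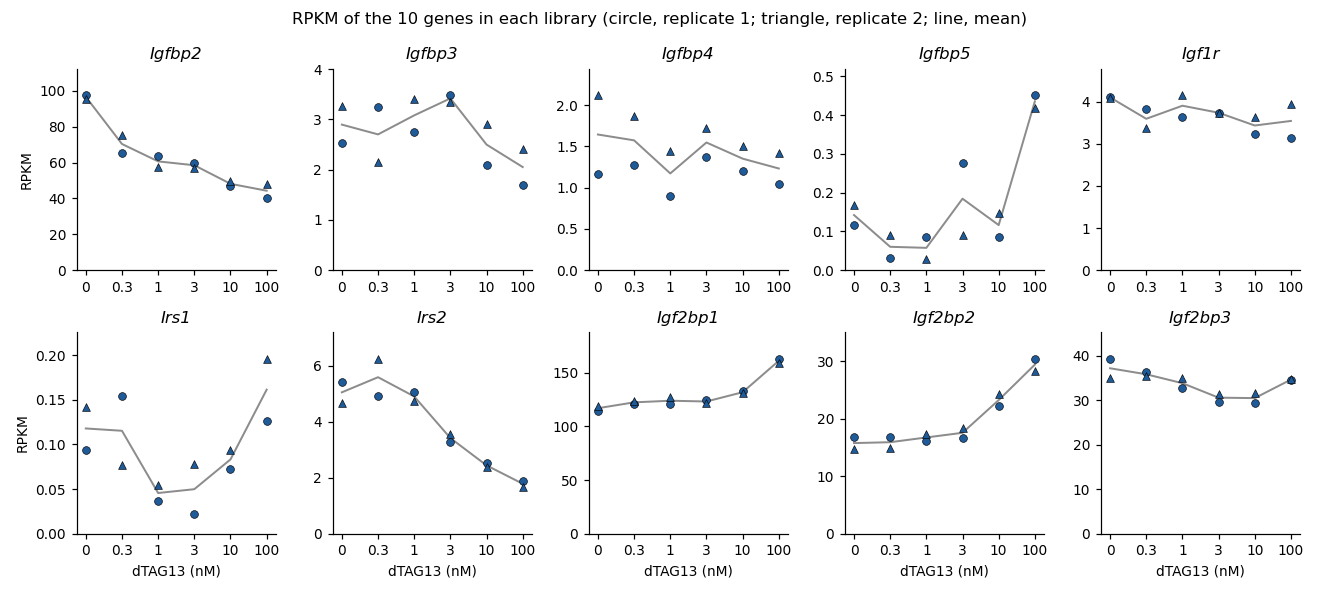
RPKM (y axes, each starting at 0) of the 10 genes in each library against the dTAG13 dose (x axes, nM, evenly spaced). Circles and triangles are replicates 1 and 2 and lines join the means of the 2 libraries. Igfbp2 runs from 95.7 and 97.8 RPKM at 0 nM to 40.4 and 48.2 at 100 nM, whereas Igfbp5 and Irs1 stay below 0.5 RPKM in every library.

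Igfbp2, which encodes a secreted IGF binding protein abundant in embryonic tissues, had a lower mean at every dose than at the dose before. The 0 nM libraries had 756 and 780 counts, or 97.8 and 95.7 RPKM. The 0.3 nM libraries stood at 65.5 and 75.3 RPKM and the 1 nM libraries at 63.7 and 57.7 RPKM. The 3 nM libraries had 59.8 and 57.2 RPKM, the 10 nM libraries 46.9 and 49.5 RPKM, and the 100 nM libraries, with 324 and 391 counts, 40.4 and 48.2 RPKM. Every treated library lay below both control libraries. Libraries of neighbouring doses stood apart except for 1 and 3 nM and for 10 and 100 nM, which overlapped. Each step but that from 10 to 100 nM also joins libraries of different runs, so that dose and run cannot be told apart in it. Relative to 0 nM the means of the 5 doses, from the lowest to the highest, were 72.8%, 62.7%, 60.5%, 49.8% and 45.8%. As log2 fold changes, these were -0.46, -0.67, -0.73, -1.01 and -1.13, with standard errors (SE) of 0.089, 0.090, 0.092, 0.092 and 0.093. These values chose the gene and are given as a description. The counts do not tell fewer cells that express a gene from less RNA per cell.

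Of the 11378 genes whose mean reached 1 RPKM, 3.59% had means that went down at each of the 5 dose steps, and Igfbp2 was one of them. Among the 777 genes lower at 100 nM (Benjamini-Hochberg-adjusted p under 0.05 and over 1.5-fold by the quasi-likelihood test of edgeR, the rule by which a gene is called here), the median level at 0.3 nM was 90.2% of 0 nM. Of these 777 genes, 88.6% stood above the 72.8% of Igfbp2 at 0.3 nM. At 100 nM their median was 49.0%, and 56.8% of them stood above the 45.8% of Igfbp2. All these percentages share the 2 control libraries, and for those at 0.3 nM the dose and the run cannot be told apart. The 777 genes include Igfbp2 itself, and its place among them rests on the values that chose it. In comparisons that do not use the 0 nM libraries, Igfbp2 stood lower by a log2 difference of -0.27 (SE 0.094) for 3 nM against 0.3 nM and of -0.45 (SE 0.096) for 100 nM against 1 nM. These doses too belong to the fall that chose the gene, so that both values are descriptions and no separate support.

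The genes whose levels followed Igfbp2 most closely over the 12 libraries, by Pearson's r of log2(RPKM + 0.1), were Tacc1 (r = 0.963), Plec (0.962), Cd81 (0.957), Rian (0.956) and Mapk4 (0.956). Tacc1 and Plec encode cytoskeletal proteins, Cd81 a tetraspanin of the cell surface, Rian an imprinted noncoding RNA and Mapk4 an atypical MAP kinase. At 0.3 nM these genes stood at 80.2% to 86.8% of their 0 nM level, above the 72.8% of Igfbp2. An r over 0.9 was reached by 1.2% of the 11377 genes compared. Only Rian was among the first 5 by Spearman's rho, whereas 3 of the 5 were with a pseudocount of 1. The libraries share their doses and depths, so that these values are descriptions.

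The other 3 binding protein genes were low and none passed the test at any dose against 0 nM. Igfbp3, whose product is the main IGF carrier of blood, ranged from 1.70 to 3.49 RPKM (25 to 50 counts) over the 12 libraries. At 100 nM it had 1.70 and 2.41 RPKM against 2.53 and 3.27 RPKM without dTAG13, which is -0.50 as a log2 fold change (95% interval -1.10 to 0.11, adjusted p = 0.239, quasi-likelihood test of edgeR). Igfbp4, whose product is cut by the protease PAPP-A, ranged from 0.896 to 2.13 RPKM (11 to 27 counts). At 100 nM its libraries, at 1.04 and 1.42 RPKM, overlapped with those at 0 nM, at 1.16 and 2.13 RPKM. For Igfbp4 the log2 fold change was -0.42 (95% interval -1.27 to 0.43, adjusted p = 0.514 from the same test), and it was 0.081 without 0 nM replicate 2. At these depths a log2 change of -1 in either gene lay within the interval.

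Igfbp5, whose product binds IGFs and matrix, was near the detection limit. The 2 libraries of each dose, from 0 nM upward, had 4 and 6, 1 and 3, 3 and 1, 8 and 3, 3 and 5, and, under 100 nM, 16 and 15 counts. Both 100 nM libraries, at 0.453 and 0.419 RPKM, lay above the other 10, the highest of which had 0.277 RPKM. Genes under a mean of 1 RPKM were tested in a second fit of all 23204 genes with at least 1 count, over which the median log2 fold change at 100 nM against 0 nM was 0.17. In that fit the log2 fold change of Igfbp5 under 100 nM was 1.59 against 0 nM (SE 0.66, adjusted p = 0.0937, quasi-likelihood test of edgeR), which did not pass. The ratio of summed counts, 31 against 10, was 3.05 after scaling to library size, with an exact 95% counting interval of 1.46 to 6.98. Against 1 nM, a comparison without the 0 nM libraries, Igfbp5 rose with a log2 fold change of 2.85 (SE 0.78, adjusted p = 0.0053 from the same test). Of the 23204 genes, 4.74% were called in that comparison. The ratio of 31 to 4 counts was 7.62 (exact 95% counting interval 2.69 to 29.7). The call was lost without 1 nM replicate 2 (adjusted p = 0.147), without 100 nM replicate 1 (0.0569) and in a fit of the 4 libraries alone (0.0925), all by edgeR, and DESeq2 gave no adjusted p. The summed RPKM of the 8 fibroblast markers was 0.831 and 1.49 in the 1 nM libraries and 1.98 and 2.90 in the 100 nM libraries, with 2 of the 8 genes at 0 in both 1 nM libraries and none in both at 100 nM. At 0 nM the fibroblast sum was 1.87 and 2.23 RPKM, which overlapped with that at 100 nM. The primitive endoderm sum was 1.34 to 2.28 RPKM at 1 nM and 2.53 to 2.88 RPKM at 100 nM, and the neuroectoderm sum 43.6 to 45.7 RPKM against 68.3 to 70.4 RPKM. The part of these markers in the rise of Igfbp5 was not tested.

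Igf1r, the gene of the receptor for IGF1 and IGF2, kept within a narrow range of 3.15 to 4.17 RPKM (221 to 301 counts). It had 4.13 and 4.09 RPKM at 0 nM and 3.15 and 3.94 RPKM at 100 nM, so that the libraries did not overlap. For Igf1r the log2 fold change was -0.21 (95% interval -0.45 to 0.03, adjusted p = 0.201, quasi-likelihood test of edgeR) and did not pass the test. The interval leaves out a fall of Igf1r by more than 0.45 on the log2 scale at 100 nM.

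Irs2, which encodes an adaptor that carries signals from the IGF1 and insulin receptors to PI3K, fell at the upper doses. Its libraries had 5.44 and 4.66 RPKM at 0 nM (127 and 115 counts), 4.92 and 6.26 RPKM at 0.3 nM and 5.08 and 4.73 RPKM at 1 nM. They had 3.29 and 3.55 RPKM at 3 nM, 2.51 and 2.37 RPKM at 10 nM and 1.90 and 1.67 RPKM at 100 nM (46 and 41 counts). The libraries of 0, 0.3 and 1 nM overlapped, and every library from 3 nM upward lay below all of them. In percent of 0 nM, the means of Irs2 from 0.3 nM upward were 111, 97.1, 67.7, 48.3 and 35.3.

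The log2 fold change of Irs2 against 0 nM was -1.50 at 100 nM (SE 0.19, adjusted p = 1.04e-06, quasi-likelihood test of edgeR) and -1.04 at 10 nM (SE 0.18, adjusted p = 0.000122, same test). At 3 nM it was -0.56 (SE 0.17, adjusted p = 0.0394 from edgeR), which passed the test but not the fold-change minimum of 1.5. Without the filter on low values it passed both (-0.60, adjusted p = 0.0251, edgeR), but in 7 of 12 alternatives its adjusted p was over 0.05. These were each single library left out (0.261 and 0.0587 without 0 nM replicates 1 and 2, 0.182 and 0.108 without 3 nM replicates 1 and 2), the pairwise fit (0.0648), the fit with no normalization factors (0.0902) and the Wald test of DESeq2 (0.182). At 0.3 and 1 nM the log2 fold changes were 0.15 and -0.04, with 95% intervals of -0.18 to 0.47 and -0.37 to 0.29. Without the 0 nM libraries, Irs2 fell by 0.71 on the log2 scale at 3 nM against 0.3 nM (adjusted p = 0.0131, edgeR), which was lost without 0.3 nM replicate 2 (0.191), 3 nM replicate 1 (0.0845) or 3 nM replicate 2 (0.0567) and with DESeq2's Wald test (0.0757), each an adjusted p. It fell by 1.46 at 100 nM against 1 nM (SE 0.19, adjusted p = 3.16e-06, edgeR). At 1 nM, 11.8% of the 777 genes lower at 100 nM stood above the 97.1% of Irs2, and their median was 80.7%.

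Irs1 encodes the sister adaptor and had 1 to 11 counts per library. Its levels were 0.0937 and 0.142 RPKM at 0 nM and 0.127 and 0.196 RPKM at 100 nM, which overlapped. The ratio of 18 to 13 counts was 1.36 (exact 95% counting interval 0.632 to 3.03), and the log2 fold change of Irs1 was 0.44 (SE 0.69, adjusted p = 0.729, the quasi-likelihood test of edgeR over the 23204 genes). At 100 nM against 1 nM, where the libraries stood apart, it was 1.77 (SE 0.82, adjusted p = 0.193, same test), with a ratio of 18 to 5 counts of 3.54 (exact 95% counting interval 1.27 to 12.2). The counting interval of Irs1 at 100 nM against 1 nM lay above a ratio of 1, but it leaves out the spread between libraries. Irs1 did not pass the test over all genes, which includes that spread.

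**Figure D2:**
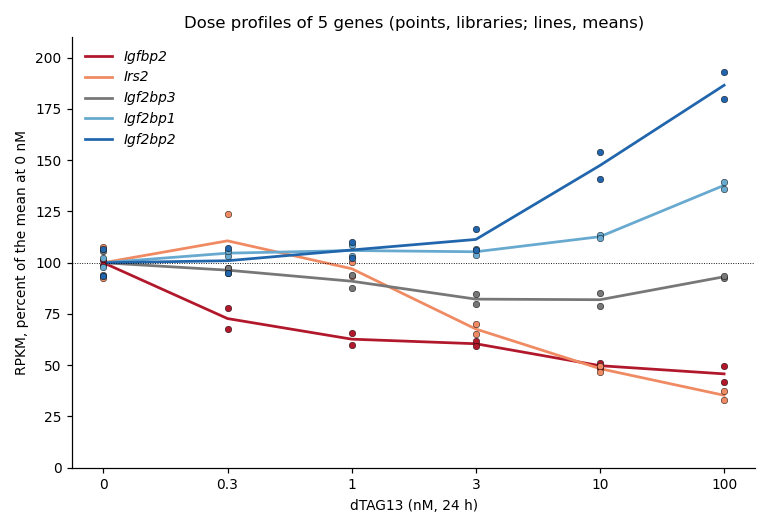
RPKM as a percent of the mean at 0 nM (y axis, from 0) for 5 genes against the dTAG13 dose (x axis, nM, evenly spaced). Points are single libraries and lines join means. Igfbp2 is at 72.8% at 0.3 nM where Irs2 is at 111%, and at 100 nM Igf2bp2 is at 187%, Igf2bp1 at 138% and Igf2bp3 at 93.2%.

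The 3 IGF2BP genes encode paralogous proteins, and their levels took different courses. Igf2bp2 had 16.8 and 14.7 RPKM at 0 nM (381 and 353 counts), 16.9 and 14.95 RPKM at 0.3 nM and 16.1 and 17.4 RPKM at 1 nM. It had 16.7 and 18.4 RPKM at 3 nM, 22.2 and 24.3 RPKM at 10 nM and 30.5 and 28.3 RPKM at 100 nM (717 and 676 counts). The libraries of 0 to 3 nM overlapped, and those of 10 and 100 nM lay above them and apart from each other. Means of Igf2bp2 were higher at each of the 5 dose steps, as they were for 2.36% of all genes tested. Only the step from 10 to 100 nM lies within a run. The log2 fold change of Igf2bp2 at 100 nM against 0 nM was 0.90 (SE 0.093, adjusted p = 4.38e-08, quasi-likelihood test of edgeR). At 10 nM it was 0.56 (SE 0.095, adjusted p = 0.000102 from edgeR), which missed the 1.5-fold minimum and passed it without 0 nM replicate 1 (0.65), 10 nM replicate 1 (0.62) or normalization factors (0.62). At 3 nM it was 0.16 (95% interval -0.04 to 0.36). At 100 nM against 1 nM, Igf2bp2 rose by 0.81 on the log2 scale (adjusted p = 4.02e-07, edgeR).

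Igf2bp1, the most abundant of the 3, had 114.3 and 119.3 RPKM at 0 nM (5580 and 6143 counts) and 163.0 and 158.8 RPKM at 100 nM (8253 and 8139 counts). Between these doses it lay from 120.6 to 132.6 RPKM, and both 100 nM libraries exceeded every other library. With its high counts, a log2 fold change of 0.46 at 100 nM had a SE of 0.049 (adjusted p = 7.10e-08, quasi-likelihood test of edgeR). It amounts to 1.38-fold and therefore stayed under the 1.5-fold minimum. At 100 nM against 1 nM the log2 fold change of Igf2bp1 was 0.38 (adjusted p = 2.84e-06, edgeR). At 10 nM against 0 nM it was 0.17 (adjusted p = 0.0142, edgeR), and the adjusted p was over 0.05 in 6 of 12 alternatives, among them the fits without 0 nM replicate 1 (0.176) and without 10 nM replicate 1 (0.0581).

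Igf2bp3 had 39.4 and 35.0 RPKM at 0 nM, 36.3 and 35.5 RPKM at 0.3 nM and 32.7 and 35.0 RPKM at 1 nM. It had 29.7 and 31.5 RPKM at 3 nM, 29.3 and 31.7 RPKM at 10 nM and 34.5 and 34.9 RPKM at 100 nM. The 3 and 10 nM libraries were the lowest 4, and those of 100 nM lay just below both control libraries. The log2 fold change of Igf2bp3 was -0.28 at 3 nM (adjusted p = 0.0163) and -0.29 at 10 nM (adjusted p = 0.00783), under the 1.5-fold minimum, and -0.10 at 100 nM (95% interval -0.25 to 0.05, adjusted p = 0.352), all from the quasi-likelihood test of edgeR. The adjusted p was over 0.05 in 3 of 12 alternatives at each of the 2 lower doses. These were the fits without 0 nM replicate 1 (0.237 at 3 nM and 0.145 at 10 nM), without replicate 1 of the dose itself (0.129 and 0.0705) and with no normalization factors (0.151 and 0.111). The 95% intervals of the log2 fold changes at 100 nM were 0.71 to 1.09 for Igf2bp2, 0.36 to 0.56 for Igf2bp1 and -0.25 to 0.05 for Igf2bp3 and did not overlap, although the difference between genes was not itself tested. Within single libraries, the RPKM of Igf2bp2 was 42.6% and 42.1% of that of Igf2bp3 at 0 nM and 88.2% and 81.3% at 100 nM. The summed RPKM of the 3 genes was 170.5 and 169.0 at 0 nM and 228.0 and 222.0 at 100 nM.

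Some of these counts touch other genes, and reads were counted without regard to strand. Exons of 9530052E02Rik, on the opposite strand, overlap Irs2 by 162 bases, and this gene had a mean of 0.177 RPKM. In the GENCODE M21 annotation, which was not the one used for counting, exons of Malsu1 overlap Igf2bp3 by up to 1534 bases and exons of Gm9747 overlap Irs1 by up to 2822 bases, both on the opposite strand, so that reads from these pairs cannot be told apart. Malsu1 had a log2 fold change of -0.29 at 100 nM (SE 0.16, adjusted p = 0.200, edgeR). Exons of Gm29202 overlap Igf2bp1 by 43 bases. Mir3063, on the same strand as Igf2bp1, overlaps it by 92 bases in both annotations and had a mean of 0 RPKM.

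In each comparison, 0 to 3 of the 9 genes other than Igfbp2 were called by the rule of adjusted p under 0.05 and over 1.5-fold. At 0.3, 1 and 3 nM against 0 nM none was called by the quasi-likelihood test of edgeR, when 0.0176%, 0.914% and 3.9% of the 11378 genes were. At an unadjusted p under 0.05 there were 0, 0 and 2 of them, and the likelihood ratio test and DESeq2 called none either, DESeq2 giving no adjusted p for 5, 4 and 2 of the 9. At 10 nM 1 was called, Irs2, against 7.93% of all genes. At 100 nM 2 were called, Irs2 lower and Igf2bp2 higher, against 11.2% of all genes. At 3 nM against 0.3 nM 1 was called against 1.94% of all genes, and at 100 nM against 1 nM 3 were (Irs2, Igf2bp2 and Igfbp5) against 6.3%. With no fold minimum, an adjusted p under 0.05 was reached at 3 nM by 2 lower genes, Irs2 and Igf2bp3, against 5.25% of all genes. At 10 nM it was reached by 2 higher (Igf2bp1 and Igf2bp2) and 2 lower genes (Irs2 and Igf2bp3), against 7.87% and 10.1%, and at 100 nM by 2 higher (Igf2bp1 and Igf2bp2) and 1 lower gene, against 10.1% and 13.3%. At 3 nM against 0.3 nM 1 lower gene reached it, against 2.88%, and at 100 nM against 1 nM Igf2bp1, Igf2bp2 and Igfbp5 did as higher and Irs2 as lower, against 5.54% and 7.87%. The percentages with and without a fold minimum rest on the 11378 genes, as do the tests of 7 members. Igfbp5 and Irs1 were tested in the second fit, in which 7.86% were called at 100 nM against 0 nM. At 100 nM against 1 nM, where Igfbp5 was called, that fit called 4.74%. The median log2 fold change of the 7 members of the first fit at 100 nM against 0 nM was -0.21, beside 0.00 over all genes tested.

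A slope over the 6 dose ranks, which uses all 12 libraries, passed the test for 4 of the 9 genes, when 29.3% of all genes did. The log2 change per dose step was -0.31 for Irs2 (adjusted p = 1.10e-06), 0.18 for Igf2bp2 (adjusted p = 5.82e-07) and 0.076 for Igf2bp1 (adjusted p = 4.82e-05) by the quasi-likelihood test of edgeR. For Igfbp5 it was 0.41 (adjusted p = 0.0322, edgeR, when 19.6% of the 23204 genes passed), which did not pass without 0.3 nM replicate 1 (0.0638), 100 nM replicate 1 (0.159) or 100 nM replicate 2 (0.126), on the 8 libraries of 0, 1, 10 and 100 nM alone (0.120) or with DESeq2's Wald test (0.0718). The slope of Igf2bp3 was -0.038 (adjusted p = 0.0722, edgeR) and passed without 100 nM replicate 1 (0.0316), without 100 nM replicate 2 (0.0241) and without the filter on low values (0.0107). Slopes of Igf1r (-0.038), Igfbp3 (-0.071) and Igfbp4 (-0.069) had adjusted p-values of 0.160, 0.314 and 0.464 by the same edgeR test.

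**Figure D3:**
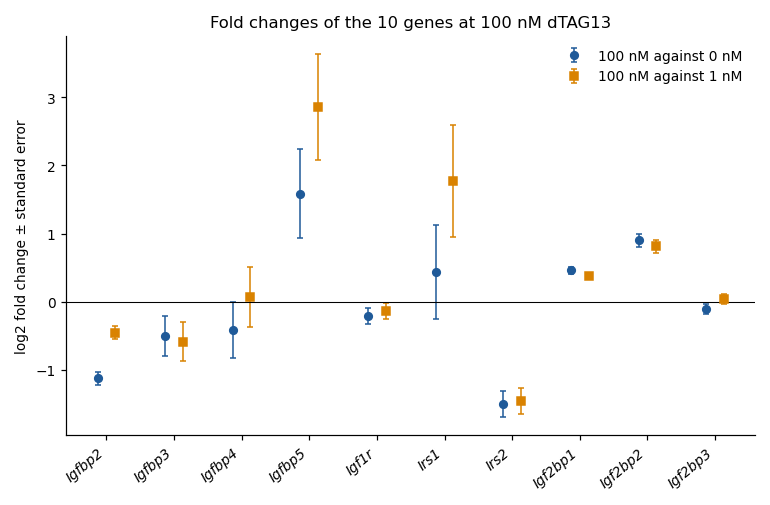
Log2 fold changes (y axis) of the 10 genes (x axis) at 100 nM dTAG13 against 0 nM (circles) and against 1 nM (squares), with bars of 1 SE. Irs2 lies at -1.50 and -1.46 and Igf2bp2 at 0.90 and 0.81, whereas the bars of Igfbp5 and Irs1 are the widest, each library having 16 or fewer counts.

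The rest of the pathway was read from a list of 58 genes, of which 43 had a mean of at least 1 RPKM. The ligand genes were near 0. The 0 nM libraries had 17 and 18 counts of Igf2 and the 100 nM libraries 8 and 16, which is 0.689 and 0.691 against 0.313 and 0.618 RPKM (log2 fold change -0.56, SE 0.45, adjusted p = 0.475, edgeR). Igf1 had 0 to 7 counts per library, with 11 over both 100 nM libraries and 2 over both at 0 nM. Its log2 fold change was 2.295 (SE 1.3, adjusted p = 0.271, edgeR), which did not pass the test. Ins1 and Ins2, the insulin genes, had 0 to 3 counts per library. Insr, the insulin receptor gene, stood at 3.80 and 2.82 RPKM at 0 nM and at 3.40 and 3.62 RPKM at 100 nM, which overlapped (log2 fold change 0.09, adjusted p = 0.707, edgeR), and its sign turned without 0 nM replicate 2. Igf2r, whose product clears IGF2, had 12.02 and 11.5 RPKM at 0 nM and 14.04 and 13.8 RPKM at 100 nM. For Igf2r this is a log2 fold change of 0.24 (SE 0.075, adjusted p = 0.0209, edgeR), under the 1.5-fold minimum, and its adjusted p was over 0.05 when any 1 of these 4 libraries was left out (0.0526 to 0.156).

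Insrr encodes an orphan receptor of the insulin receptor family. Its 0 nM libraries had 3 and 1 counts, its 100 nM libraries 16 each, and it rose in the second fit (log2 fold change 2.90, SE 0.78, adjusted p = 0.0030, edgeR), with a ratio of 32 to 4 counts of 7.88 (exact 95% counting interval 2.79 to 30.7). That call was lost without 0 nM replicate 2 (adjusted p = 0.108, edgeR). Among the other binding protein genes, Igfbp1 had 0 to 3 counts and Igfbp6 0 to 2 counts per library. Igfbp7 had 2.27 and 2.15 RPKM without dTAG13 and was above both control libraries from 0.3 to 10 nM, with its highest values, 5.86 and 4.11 RPKM, at 3 nM. That dose gave Igfbp7 a log2 fold change of 1.16 (SE 0.39, adjusted p = 0.0604, edgeR), which did not pass the test. The 100 nM libraries of Igfbp7, at 1.37 and 3.64 RPKM, lay on either side of the controls. Igfbpl1 had 1.32 and 1.49 RPKM at 0 nM and 1.03 and 1.26 RPKM at 100 nM. Neither Igfbp7 nor Igfbpl1 was called at 100 nM (adjusted p = 0.806 and 0.641, edgeR).

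Igfals, whose product stabilizes the complex of IGF and binding protein in blood, fell from 2.52 and 2.24 RPKM at 0 nM to 0.706 and 0.774 RPKM at 100 nM, a log2 fold change of -1.67 (SE 0.41, adjusted p = 0.00328, quasi-likelihood test of edgeR). Htra1 encodes a secreted serine protease that can cut IGF binding proteins. It had 22.5 and 24.7 RPKM at 0 nM, 33.4 and 31.9 RPKM at 3 nM and 8.28 and 6.98 RPKM at 100 nM, so that it was highest at 3 nM and lowest at 100 nM. The 100 nM dose against 0 nM gave Htra1 a log2 fold change of -1.63 (SE 0.12, adjusted p = 1.17e-10, same test).

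In all, 4 of the 43 genes over 1 RPKM rose and 7 fell at 100 nM against 0 nM, beside 4.37% and 6.83% of all genes tested, and 1 of the 15 under 1 RPKM rose in the second fit, in which 4.13% of the 23204 genes did. The median log2 fold change of the 43 was -0.06. Of the 23 genes of the PI3K-AKT arm, all over 1 RPKM, 1 rose and 1 fell. Pik3cd, a catalytic PI3K subunit gene, went from 8.52 and 9.03 RPKM to 24.2 and 23.5 RPKM (log2 fold change 1.44, SE 0.091, adjusted p = 6.90e-12, edgeR). Grb14, an adaptor gene whose product inhibits the insulin receptor, rose from 1.05 and 0.746 RPKM to 2.53 and 2.50 RPKM (log2 fold change 1.48, SE 0.41, adjusted p = 0.00923, edgeR). The Grb14 call was lost without 0 nM replicate 2 (adjusted p = 0.105, edgeR) and with DESeq2's Wald test (0.0619). Its means below 100 nM ran from 0.806 to 1.215 RPKM, and 2.51 RPKM at 100 nM carried it over the 1 RPKM filter. The filter thus used the level that the test compares, so that Grb14 and its place among the 4 are a description.

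Known mRNA clients of the IGF2BPs and genes of the let-7 circuit, which the IGF2BP genes belong to as targets of let-7, moved in both directions. Of 8 over 1 RPKM, 2 rose and 4 fell, beside 4.37% and 6.83% of all genes tested. Myc, an IGF2BP client, stood at 24.3 and 23.9 RPKM at 0 nM and 44.3 and 47.9 RPKM at 100 nM (log2 fold change 0.94, SE 0.081, adjusted p = 1.73e-09, edgeR). Lin28b, a let-7 inhibitor gene, stood at 4.01 and 5.09 RPKM at 0 nM and 10.5 and 10.4 RPKM at 100 nM (log2 fold change 1.20, SE 0.13, adjusted p = 6.61e-08, edgeR). H19, an imprinted noncoding RNA bound by IGF2BPs, had 2.25 and 4.05 RPKM at 0 nM and 0.796 and 1.43 RPKM at 100 nM (log2 fold change -1.50, SE 0.38, adjusted p = 0.00481, edgeR). The H19 call was lost without 0 nM replicate 2 (0.158) or 100 nM replicate 1 (0.0977). The other genes that fell, which the rule for named genes left out and which were picked after their values were seen, were Mapt, Hmga2, Lin28a and, in the PI3K-AKT arm, Pik3r3, with log2 fold changes from -0.64 to -0.88. Lin28a, the paralog of Lin28b, had 73.5 and 76.2 RPKM at 0 nM and 47.8 and 48.3 RPKM at 100 nM.

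**Figure D4:**
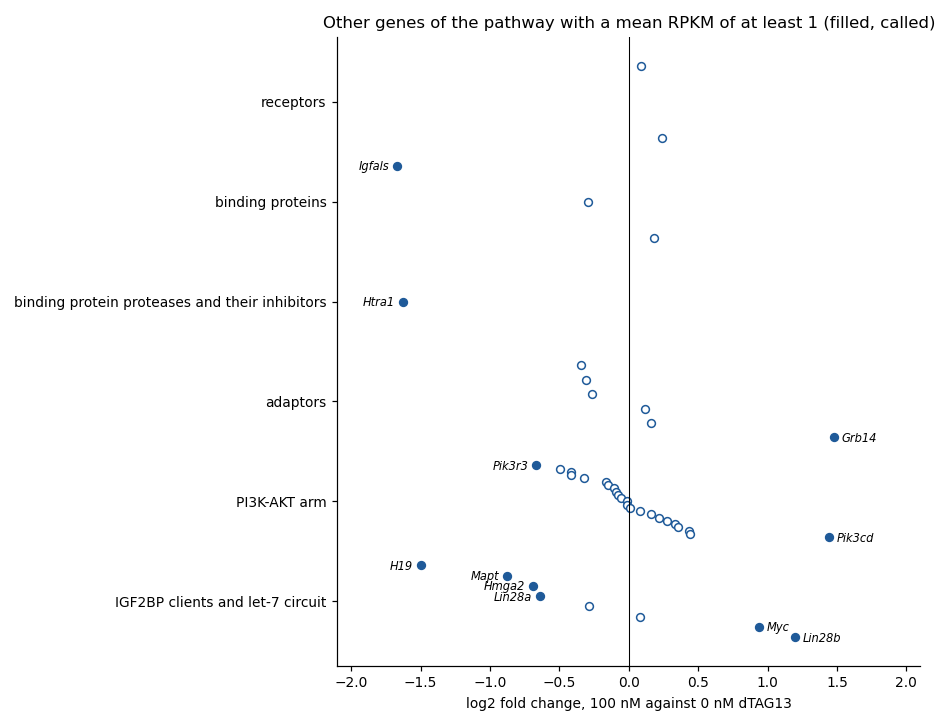
Log2 fold change at 100 nM against 0 nM (x axis) of the 43 other pathway genes whose mean reached 1 RPKM, by role (y axis). Filled points passed the test and the 1.5-fold minimum and are named, and open points did not. The 4 called higher run from 0.94 (Myc) to 1.48 (Grb14) and the 7 called lower from -0.64 (Lin28a) to -1.67 (Igfals). Grb14 passed the 1 RPKM filter through its 100 nM libraries.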

How the data were processed

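The authors deposited raw counts of read pairs per gene symbol for 12 RNA-seq libraries (SMART-Seq Stranded Kit), after Trim Galore trimming, HISAT2 alignment to mm10 and featureCounts 2.0.1 on exons, with both ends required and multi-mapped pairs left out. The kit marks the strand, but the counting did not use it, and no normalization was applied. Gene lengths came with the counts. Pairs that fit several IGF2BP paralogs equally well were thus not counted.

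Software was edgeR 4.0.16 with limma 3.58.1, and DESeq2 1.42.0 as an alternative, under R 4.3.3. RPKM and fits used TMM factors of the 11378 genes with a mean RPKM of at least 1. The 6 conditions were fitted together and compared by the quasi-likelihood test of edgeR, with Benjamini-Hochberg values over all genes tested. The study's own likelihood ratio test was an alternative. A call took an adjusted p under 0.05 and, except for slopes, over 1.5-fold change. A second fit of the 23204 genes with at least 1 count, on the same scale, served genes under the filter. Intervals of log2 fold changes use the fit's t quantiles, and count ratios exact binomial intervals. On simulated counts for 100 nM against 0 nM, 94% of 200 genes changed 3-fold were called, beside 6 others among 11378 genes. The simulation does not cover changes nearer to the 1.5-fold minimum or genes under the filter.

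Members and lists were chosen with earlier results of these data known. Besides members, named genes were the ligands, receptors and binding proteins of the pathway list, its 8 called genes with the largest fold change at 100 nM, the 5 nearest to Igfbp2 and genes over 1 RPKM within 100 kb of it. Alternatives covered the test, normalization, filter, fold minimum, a replicate block, pairwise fits and each library left out. Label numbers form 1 run for 0, 1, 10 and 100 nM and another for 0.3 and 3 nM, whether of library preparation or of sequencing is not given in the sources used here, so 3 nM was also compared with 0.3 nM and 100 nM with 1 nM.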

Additional observations from a re-analysis of the deposited data

How the results depend on the processing

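The calls of Irs2 at 10 nM and 100 nM and of Igf2bp2 at 100 nM against 0 nM, and those of both genes at 100 nM against 1 nM, kept their direction and stayed past both thresholds under all 12 alternatives run for each. The log2 fold change of Igfbp2 at 100 nM lay between -1.258 and -1.005 over 12 alternatives. Scalings moved the median of all tested genes at 100 nM by at most 0.047. Depth limits Igfbp5 and Irs1, at 16 or fewer counts per library. Unless a value speaks to it, the cause of a change was not tested.

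Counts of the 9 genes called moved in the cases below, among others. The rising slope of Igfbp5 was lost in the fits named with it above. With no fold minimum, Igf2bp1 was also higher at 100 nM against 1 nM. With no fold minimum, 2 were lower at 3 nM, 2 higher and 2 lower at 10 nM and 2 higher at 100 nM, against 0, 0, 1 and 1, by construction of a wider rule. With no filter on low values, 1 was lower at 3 nM and 2 had a falling slope, and with no normalization factors 1 was higher at 10 nM. DESeq2's Wald test called 0 lower at 3 nM against 0.3 nM and 1 higher at 100 nM against 1 nM, as the pairwise fit did for the latter (1). Leaving out single libraries gave 0 to 1 higher at 10 nM, 0 to 1 lower at 3 nM against 0.3 nM, 1 to 2 higher at 100 nM against 1 nM and 1 to 2 falling slopes. Of the pathway list at 100 nM, 10 were higher and 13 lower with no fold minimum, against 5 and 7, and DESeq2 called 3 higher. Without single libraries, 3 to 5 were higher.

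Signs turned only in values that did not pass the test. With no filter on low values, Igf2bp1 at 3 nM against 0.3 nM was -0.0375 and Igf2bp3 at 100 nM against 1 nM was -0.041. Without single libraries, log2 fold changes ran from -0.0357 to 0.31 for Irs2 at 0.3 nM, from -0.16 to 0.0638 for Irs2 at 1 nM, from -0.0123 to 0.0263 for Igf2bp1 at 3 nM against 0.3 nM, from -0.0787 to 0.11 for Igf2bp2 at 0.3 nM and from -0.0131 to 0.18 for Igf2bp2 at 1 nM. They ran from -0.14 to 0.0338 for Igf2bp3 at 0.3 nM, from -0.0146 to 0.0886 for Igf2bp3 at 100 nM against 1 nM, from -0.78 to 0.0813 for Igfbp4 at 100 nM and from -0.12 to 0.32 for Insr at 100 nM. The replicate block left every count of members and of pathway genes as it was, at 1 higher and 1 lower member and 5 higher and 7 lower pathway genes at 100 nM. Deviations of same-numbered libraries correlated between -0.12 and 0.098 across conditions. This does not tell whether same-numbered libraries shared a culture or preparation, which no label gives.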
